A study of Mus musculus with 12 samples.

Results

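The genes described are the molecular chaperones and co-chaperones that mouse oocytes use to fold proteins: the subunits of the chaperonin CCT, the prefoldins, the heat shock proteins (HSP) and the J-domain proteins (DNAJ), with the heat shock transcription factor gene Hsf1. They were chosen by gene symbol, and 77 of the 22801 genes in the table of the MII stage matched. At the GV stage 12 of the 77 were in the deposited table of 3475 genes, and those 12 were selected on their own measured values, since the authors kept there only genes past 2-fold with an unadjusted p below 0.05. The symbols reach beyond the cytosol: 13 members work in the endoplasmic reticulum (ER) or its membrane and 8 in mitochondria, and Hspb11, named as a small HSP, encodes a protein of intraflagellar transport.

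The RNA came from oocytes of C57BL/6 females aged 35 days, pooled 15 to a tube, with 3 libraries in each of 4 groups. WT oocytes were Lsm14b fl/fl, that is with 2 floxed alleles of Lsm14b, a gene for an RNA-binding protein, and no Cre. CKO oocytes were Lsm14b fl/fl with Gdf9-Cre, a recombinase driven by a promoter that is active in oocytes. Each genotype was taken as fully grown oocytes with an intact nucleus (germinal vesicle, GV) and at the stage labelled MII, the metaphase of the second meiotic division.

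Chaperones bind unfolded or partly folded proteins and release them when they can fold. HSP70 proteins take up short exposed stretches, J-domain proteins bring the substrate and set off ATP hydrolysis, and HSP110 proteins such as Hsph1 exchange the nucleotide so that the cycle can start again. CCT is a double-ring chamber of 8 related subunits, each at its own place in the ring, which folds actin and tubulin handed over by prefoldin. HSF1 is the factor that switches on many of these genes under heat or other protein stress, and it is also a maternal factor in oocytes.

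Values below are the authors' normalized read counts, recovered from their log10 values. At MII a difference between genotypes is the limma log2 difference, CKO minus WT, of log2(normalized count + 1), and a gene is said to have risen or fallen when its Benjamini-Hochberg adjusted p over 20388 genes was under 0.05. The p-values measure the spread between these libraries. Because the values are scaled to each library, a gene that rose or fell did so relative to the other mRNAs of the library. A change in total mRNA per oocyte, or in the number of intact oocytes in a pool, cannot be seen or told apart in them. WT libraries were deeper at MII, with 88494525 to 124872889 reads in the table against 23077585 to 40530314 in CKO. WT replicate 3 stood apart from the other 5 MII libraries: its highest rank correlation with any of them over the genes tested was 0.877, while each of the others reached 0.928 to 0.940 with another library. Log2 differences, calls and class medians that rest on WT are therefore given with and without it. Lsm14b itself was at 11051 ± 524 in WT MII and 908 ± 80.9 in CKO MII libraries (SD, n = 3 each), and at 22931 ± 6257 and 1436 ± 164 at GV. Transcripts of the oocyte marker list summed to 623381 to 747146 in WT and 795306 to 906057 in CKO at MII, and the 10 measured cumulus and granulosa markers to 2633 to 5212 and 3213 to 4386. Of those 10 markers 0 passed the test, and 4 had all CKO libraries above all WT libraries, where 10.4% of all genes did so. A further 5 markers of the list were not listed in the table. Of the oocyte markers Nobox rose (log2 difference 2.02, adjusted p = 0.0336), also without WT replicate 3 (1.64, adjusted p = 0.0363). Zp3 passed only without that library (1.41, adjusted p = 0.0452). Of the 12 oocyte markers 4 had all CKO libraries higher and 1 all lower, where 10.4% and 12% of all genes did so. The 6 measured immediate early genes summed to 1275 to 6014 in WT and 1623 to 2294 in CKO at MII, where 0 passed the test (1, Egr1, was lower without WT replicate 3), and 6 of that list were in the GV table with CKO lower. Of 4 measured markers of theca, stroma and endothelium 0 passed at MII, where their sum was 2965 to 4381 in WT and 3792 to 4286 in CKO and Kdr had all CKO libraries lower. At GV Kdr, Pdgfra and Col1a2 were in the table as lower, at means of 213, 76.2 and 15.9 in WT, with Kdr and Col1a2 listed at 0 in all CKO libraries and Pdgfra at a mean of 1.14. The immune marker Cd68 and the testis-type germ cell marker Acrv1 were higher there, at 94.7 and 25.8 in WT and 270.0 and 82.3 in CKO, and overlapped at MII. The part of these markers in the chaperone differences was not tested.

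At MII the chaperone mRNAs that rose in CKO eggs were Cct4, Hsph1, Dnajc9 and Hspa5, and 0 of the 77 fell. The background was 0.52% of all genes tested called higher and 0.991% called lower. Without WT replicate 3 the calls were 8 higher and 1 lower, against 1.3% and 3.06% of all genes. The 8 were Cct2, Cct3, Cct4, Cct7, Dnaja1, Dnajc9, Hspa5 and Hsph1, and the 1 was Dnajc30. In 16 members every CKO library lay above every WT library, and in 8 every CKO library lay below, where 10.4% and 12% of all genes did so. By the call of the authors' deposited table (over 2-fold, adjusted p under 0.05), 9 members were higher and 5 lower, against 4.1% and 6.45% of its 16042 genes with an adjusted p. All 77 passed the minimum mean of 1 normalized count, but Hspb3, Dnajb5 and Dnajb8 did so through a single library each. The median log2 difference of the members was 0.06, beside -0.11 over all genes tested, or 0.13 beside -0.15 without WT replicate 3. Restricted to a mean level of 100 or more it was 0.06 over 63 members and 0.00 over 10568 genes, or 0.13 and -0.05 without WT replicate 3. At that level every CKO library lay above every WT library in 23.81% of the members and 14.96% of the genes. Every CKO library lay below every WT library in 11.11% of these members and 16.81% of these genes. The members thus spread in both directions around a median near 0. Leaving out any library other than WT replicate 3 gave 0 calls among the members, with 16 to 20 of them at an unadjusted p under 0.05, and 0 calls over all genes.

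**Figure D1:**
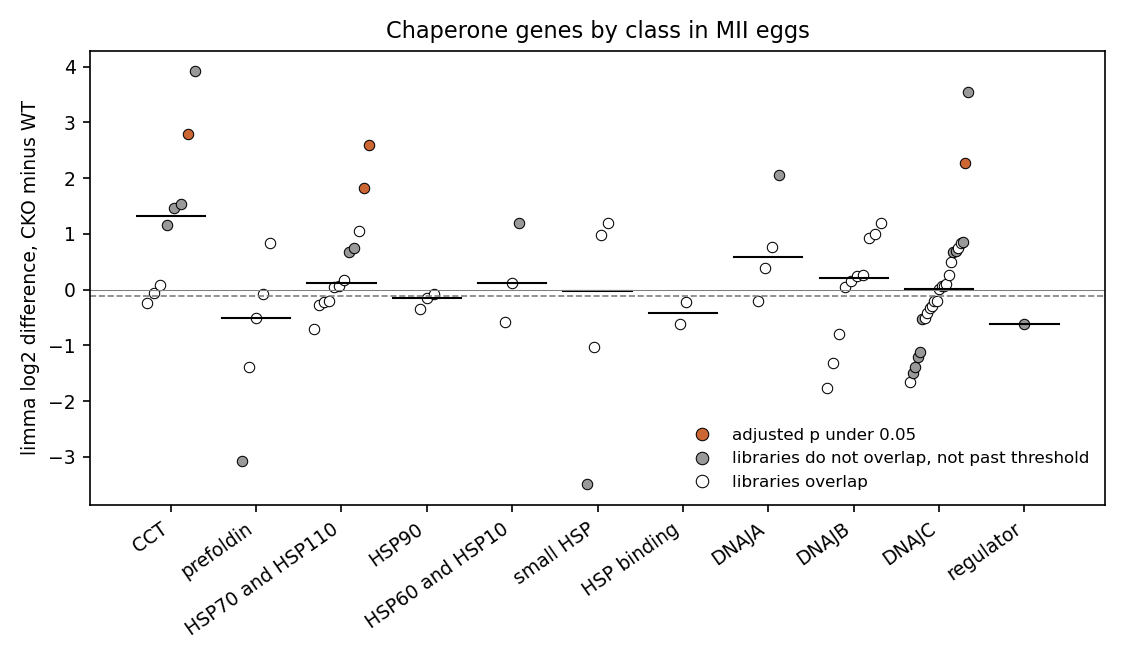
Limma log2 difference (CKO minus WT) at MII for each chaperone gene, by class; orange points passed an adjusted p of 0.05, grey points did not but their libraries did not overlap between genotypes, white points overlapped. Short bars are class medians and the dashed line is the median of all genes tested; the CCT median is at 1.31 and the other classes with more than 4 members lie between -0.50 and 0.20.

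Of the CCT subunits 1 passed the test and 7 did not. Cct4, the delta subunit, rose 6.77-fold in its mean. Its normalized counts were 566, 754 and 371 in WT replicates 1 to 3 and 3794, 3048 and 4596 in CKO replicates 2 to 4. All CKO libraries lay far above all WT libraries, by 2.79 on the log2 scale (SE 0.37, adjusted p = 0.0124), or by 2.52 without WT replicate 3 (adjusted p = 0.0346).

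Cct3, the gamma subunit, was at 1039, 885 and 1878 in WT and 3070, 3147 and 3738 in CKO. Cct7, the eta subunit, was at 925, 890 and 1803 in WT and 3954, 2398 and 3771 in CKO. Cct2, the beta subunit, was at 1123, 930 and 1618 in WT and 2459, 2565 and 3037 in CKO. The genotypes did not overlap for these 3 subunits, and WT replicate 3 was the WT library nearest to CKO each time. Their log2 differences were 1.46 (SE 0.36, adjusted p = 0.0789), 1.53 (SE 0.38, adjusted p = 0.0837) and 1.17 (SE 0.33, adjusted p = 0.113) over all libraries, so they missed the threshold. Without WT replicate 3 the same 3 differences were 1.78, 1.86 and 1.39, with adjusted p of 0.0346, 0.0440 and 0.0350.

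Cct6a, the zeta subunit, was at 12.4, 26.3 and 5.13 in WT and 135, 324 and 174 in CKO. The groups did not overlap, but its lowest library held 10 reads, and the log2 difference of 3.92 (SE 0.99) had an adjusted p of 0.0863, or 0.0752 without WT replicate 3. The GENCODE M21 annotation lists Cct6a without a protein-coding transcript, and the gene model used for counting is not given in the sources used here, so its level is uncertain.

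The other CCT subunits had overlapping libraries. Tcp1, the alpha subunit, was at 4487, 4431 and 4985 in WT and 4392, 4413 and 4459 in CKO. Cct5, the epsilon subunit, was at 2949, 3055 and 4012 in WT and 3183, 2793 and 2460 in CKO. Cct8, the theta subunit and the most abundant per length, was at 7228, 7405 and 6559 in WT and 7236, 6593 and 8932 in CKO. The log2 differences of these 3 genes were -0.07 (SE 0.26), -0.24 (SE 0.29) and 0.09 (SE 0.26), or -0.01, -0.10 and 0.04 without WT replicate 3. Over the 8 subunits 1 rose and 7 did not pass the test. In 5 the libraries did not overlap and CKO was higher, as in 10.4% of all genes. The median was 1.31, or 1.59 without WT replicate 3. In the authors' deposited table the same 5 subunits, Cct2, Cct3, Cct4, Cct6a and Cct7, were called higher at MII.

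**Figure D2:**
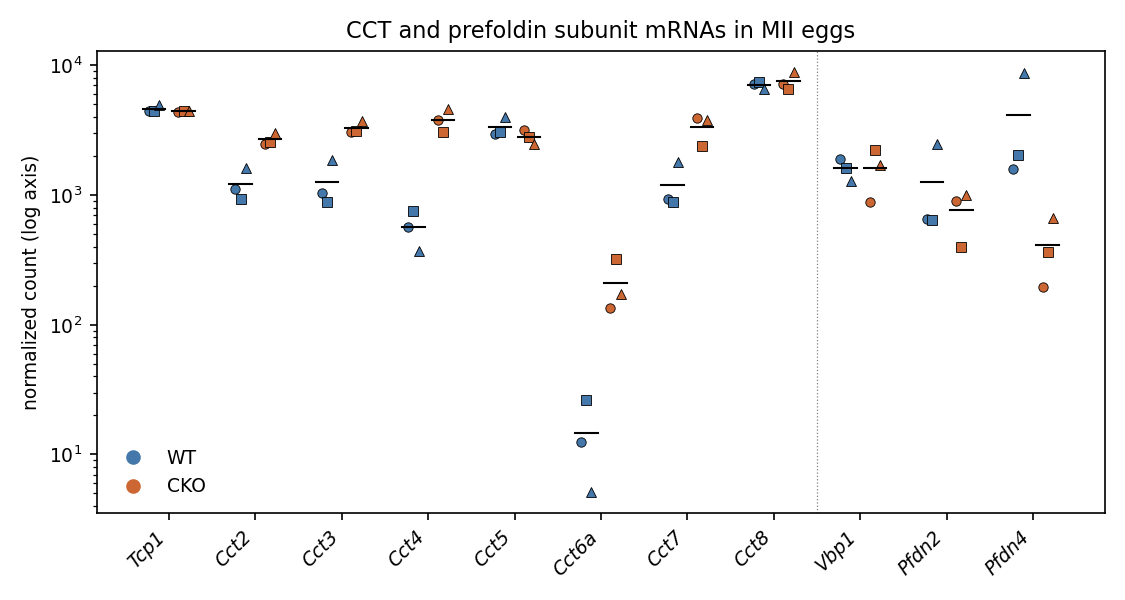
Normalized count at MII (log axis) of CCT and prefoldin mRNAs in each WT and CKO library; circles, squares and triangles are the libraries in order of replicate number and bars are group means. Cct4, Cct3, Cct7, Cct2 and Cct6a have all CKO libraries above all WT libraries, Pfdn4 has all below, and Tcp1, Cct5 and Cct8 overlap.

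Because the ring holds 1 copy of each subunit, the relative level of the subunit mRNAs was also described, per kilobase of the principal coding transcript in GENCODE M21 and without Cct6a. In WT the sum of the 7 subunits was uneven: Cct8 made up 34.5% ± 5.21, Tcp1 22.0% ± 0.682 and Cct5 20.8% ± 1.57, while Cct4 made up 2.69% ± 1.09 (SD, n = 3 each), with 2.80%, 3.73% and 1.55% in WT replicates 1 to 3. In CKO Cct8 made up 25.3% ± 1.62, Tcp1 14.6% ± 1.44, Cct5 12.3% ± 2.28 and Cct4 12.2% ± 1.25. The shares of Cct3, Cct2 and Cct7 were 7.28% ± 2.31, 7.15% ± 1.39 and 5.60% ± 1.81 in WT and 13.5% ± 0.942, 11.0% ± 0.868 and 11.0% ± 2.10 in CKO. Shares of 1 sum depend on each other. The larger shares of Cct4, Cct3, Cct2 and Cct7 in CKO leave smaller ones for Cct8, Tcp1 and Cct5.

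Within each WT library the highest subunit, Cct8, was 13.2, 10.2 and 18.4 times the lowest, which was Cct4 in each of them. Within each CKO library Cct8 was 2.41, 2.80 and 2.81 times the lowest, and the lowest was Cct2, Cct7 and Cct5 in turn. The subunit mRNAs were thus closer to each other in all 3 CKO libraries than in any WT library. The summed level per kilobase was 8151, 8144 and 9607 in WT and 12492, 11176 and 13718 in CKO, which did not overlap. With the union of all exons as the length, a choice made after seeing the data, the ratio of the highest to the lowest was 17.4 to 24.1 in WT and 4.86 to 6.04 in CKO. The shares and their order depended on the length. By the union, WT shares were 42.6% for Cct8, 22.2% for Cct5, 17.0% for Tcp1, 3.62% for Cct3 and 3.24% for Cct7. Cct4 then made up 2.52% in WT and 12.3% in CKO. The lowest subunit became Cct7 in WT replicate 2, and Cct3, Cct7 and Cct7 in CKO replicates 2 to 4.

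**Figure D3:**
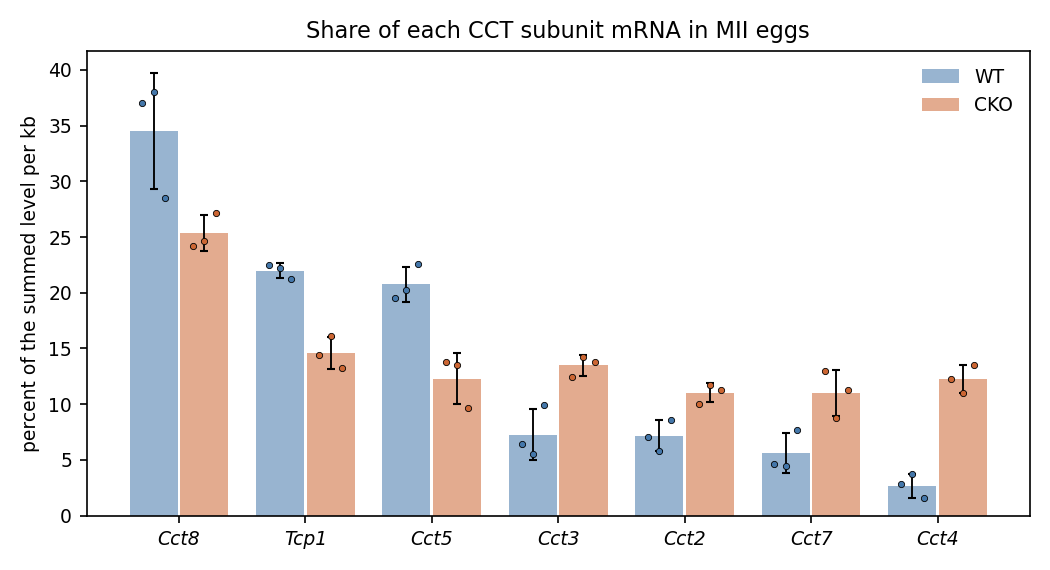
Share of each CCT subunit in the summed level per kilobase of the 7 subunits at MII, in percent; bars are means, error bars SD over 3 libraries and points the libraries. Cct8, Tcp1 and Cct5 hold smaller shares in CKO, and Cct4 goes from 2.69% in WT to 12.2%.

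Of the prefoldin mRNAs none of the 5 passed the test in limma. Pfdn4, a beta-type subunit of the prefoldin hexamer, was at 1586, 2023 and 8780 in WT and 196, 362 and 668 in CKO. All CKO libraries lay below all WT libraries, and WT replicate 3 was far above the other WT libraries. The log2 difference was -3.07 (SE 0.67, adjusted p = 0.0587), or -2.30 without WT replicate 3 (adjusted p = 0.116), and the gene was called lower in the authors' deposited table. Vbp1, which encodes the alpha-type subunit prefoldin 3, was at 1905, 1625 and 1295 in WT and 888, 2231 and 1700 in CKO. Pfdn2 was at 649, 644 and 2480 against 907, 400 and 1006. These 2 overlapped, as did Pfdn1 and Pfdn6, which had at most 312 and 35.4 normalized counts in any library. The median over the 5 prefoldin genes was -0.50, or -0.23 without WT replicate 3.

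Among the HSP70 and HSP110 genes the nucleotide exchange factor Hsph1 and the ER chaperone Hspa5 rose. Hsph1, which encodes the cytosolic HSP110 protein, was at 10632, 8696 and 4669 in WT and 45302, 53921 and 38380 in CKO. The lowest CKO library was well above the highest WT library. The log2 difference was 2.59 (SE 0.35, adjusted p = 0.0127), or 2.24 without WT replicate 3 (adjusted p = 0.0346), and the ratio of the means was 5.73. Hspa5, which encodes BiP, the HSP70 of the ER lumen, was at 2158, 1914 and 4541 in WT and 9106, 7563 and 11931 in CKO. Its genotypes did not overlap, and the rise of 1.82 (SE 0.38, adjusted p = 0.0493) lies just inside the threshold, or was 2.20 without WT replicate 3 (adjusted p = 0.0346). With a pseudocount of 0.1 or no filter on low values, Hspa5 was no longer called.

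The constitutive cytosolic HSP70 gene, Hspa8, was at 2985, 2226 and 2446 in WT and 4294, 4542 and 3942 in CKO. Its groups did not overlap, yet the log2 difference of 0.75 (SE 0.28) had an adjusted p of 0.223, and it was 0.72 without WT replicate 3 (adjusted p = 0.109). The mitochondrial HSP70 gene, Hspa9, had a log2 difference of 1.05 (adjusted p = 0.211) with overlapping libraries, and of 1.42 without WT replicate 3 (adjusted p = 0.0770). The ER gene Hspa13 had one of 0.68 without overlap (adjusted p = 0.461), or 0.70 without WT replicate 3. The stress-inducible pair Hspa1a and Hspa1b was low. Hspa1a was at 226, 163 and 12.8 in WT and 97.8, 114 and 63.4 in CKO, and Hspa1b at 374, 294 and 29.2 and 194, 165 and 57.9. Both overlapped between genotypes, and as near-identical copies they may share reads. The HSP110 relatives Hspa4 and Hspa4l had log2 differences of -0.71 and -0.21 with overlap, or -0.32 and 0.07 without WT replicate 3. Over the 12 genes 2 rose, 10 did not pass the test, and the median was 0.12, or 0.36 without WT replicate 3.

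The HSP90 genes gave no call. Hsp90aa1, the inducible cytosolic form, was at 194982, 168021 and 192295 in WT and 154211, 214777 and 139485 in CKO, and Hsp90ab1, the constitutive form, at 8423, 8255 and 34371 and 10195, 7925 and 14369. Both overlapped, with log2 differences of -0.15 (SE 0.34) and -0.35 (SE 0.53), or -0.12 and 0.33 without WT replicate 3. Hsp90b1, the ER form, had a log2 difference of -0.08 (SE 0.33), or -0.06 without that library.

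The mitochondrial chaperonin gene Hspd1 (HSP60) was at 820, 766 and 1659 in WT and 2012, 1861 and 3377 in CKO, without overlap, and its log2 difference of 1.20 (SE 0.41) had an adjusted p of 0.187, or was 1.55 without WT replicate 3 (adjusted p = 0.0767). Its lid subunit gene Hspe1 (HSP10) was at 183, 214 and 869 against 365, 185 and 656, which overlapped. The heat shock factor gene Hsf1 was at 8433, 10302 and 9435 in WT and 6587, 5527 and 6361 in CKO. All CKO libraries were below all WT libraries, with a log2 difference of -0.61 (SE 0.26) and an adjusted p of 0.288, or of -0.60 without WT replicate 3 (adjusted p = 0.121). Of the 4 genes named as small HSPs 0 passed the test; the most abundant, Hspb6, was at 709, 669 and 79.5 in WT and 789, 742 and 493 in CKO, and Hspb1 at 124, 79.0 and 349 against 82.6, 60.8 and 78.5, and both overlapped. Hspbp1, an exchange factor for HSP70, also overlapped, at 319, 257 and 120 against 129, 121 and 171.

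Per kilobase of the principal transcript, Hsp90aa1 led the 75 members with a length in WT MII eggs, at 56416 ± 4527, followed by Dnajb1 at 9942 ± 4582 and Hsp90ab1 at 6752 ± 5964 (SD, n = 3 each). The libraries of the latter pair overlapped only through WT replicate 3. Dnajb1 was at 13747 and 11222 in WT replicates 1 and 2 and 4856 in replicate 3, and Hsp90ab1 at 3343, 3276 and 13639. Without replicate 3 the means were 12484 for Dnajb1, 4495 for Hsf1 and 3309 for Hsp90ab1, so that Hsf1 held rank 3 and Hsp90ab1 rank 4. Hsph1 stood at rank 14 in WT, with 2104 ± 800 per kilobase (rank 10 and 2542 without replicate 3), and reached 12064 ± 2048 in CKO, where Dnajb1 was at 9431 ± 1287. The CKO libraries of Hsph1 and Dnajb1 overlapped, from 10095 to 14182 and from 7985 to 10453.

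Of the J-domain genes Dnajc9 rose and 0 fell. Dnajc9, a J-domain protein that also binds histones, was at 721, 542 and 1269 in WT and 3571, 2886 and 5481 in CKO. It rose by 2.28 on the log2 scale (SE 0.41, adjusted p = 0.0298), or 2.62 without WT replicate 3 (adjusted p = 0.0377). Dnaja1, a main cytosolic partner of HSP70, was at 2125, 1795 and 5102 in WT and 9742, 8775 and 16554 in CKO. Its groups did not overlap, and the log2 difference of 2.06 (SE 0.43) had an adjusted p of 0.0509, just outside the threshold, or 0.0384 without WT replicate 3, where it was 2.52. Dnajc7, a co-chaperone with tetratricopeptide repeats that binds HSP70 and HSP90, was at 2844, 2745 and 1939 in WT and 4192, 4188 and 5088 in CKO, with a log2 difference of 0.85 (adjusted p = 0.187), or of 0.68 without WT replicate 3 (adjusted p = 0.0794). The widest difference among J-domain genes whose libraries did not overlap was 3.54 for Dnajc4, a low gene with 36.5, 0 and 7.18 in WT and 106, 76.0 and 57.9 in CKO (adjusted p = 0.278), or 3.68 without WT replicate 3 (adjusted p = 0.343).

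On the lower side, Dnajc14, a J-domain protein of the ER membrane, was at 10910, 11594 and 11785 in WT and 5864, 5038 and 4128 in CKO. Its groups did not overlap and the WT libraries were close to each other. The log2 difference was -1.20 (SE 0.27, adjusted p = 0.0597), or -1.18 without WT replicate 3 (adjusted p = 0.0502). Dnajc30, a mitochondrial J-domain protein, was at 2846, 2779 and 1737 in WT and 1108, 1053 and 1157 in CKO. The log2 difference was -1.11 (SE 0.33, adjusted p = 0.125), and without WT replicate 3, its lowest WT library, -1.35 (adjusted p = 0.0346). The mitochondrial import motor gene Dnajc19 was at 602, 749 and 784 in WT and 369, 241 and 225 in CKO, without overlap (log2 difference -1.38, SE 0.43), or -1.31 without WT replicate 3 (adjusted p = 0.108), and missed the threshold.

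The ER co-chaperone gene Dnajc3 was at 4987, 5735 and 17960 in WT and 2403, 2474 and 3851 in CKO, again without overlap but with a wide WT spread (log2 difference -1.50, adjusted p = 0.155), or -0.91 without WT replicate 3. In the authors' deposited table Dnajc3, Dnajc14, Dnajc19 and Dnajc30 were called lower and Dnaja1 and Dnajc9 higher. Dnajb1, the main stress-inducible J-domain gene, was at 41186, 33622 and 14547 in WT and 31317, 29522 and 23924 in CKO, which overlapped (log2 difference 0.04, or -0.41 without WT replicate 3). The other abundant J-domain genes overlapped too: Dnajb4 had a log2 difference of -0.80 (adjusted p = 0.33), Dnaja2 of 0.39 (adjusted p = 0.612), and Dnajc13, a J-domain protein of endosomes, of 0.01 (adjusted p = 0.986). Without WT replicate 3 these 3 were -0.48, 0.62 and -0.30.

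Of the 39 J-domain genes 1 rose, 38 did not pass the test, 6 had all CKO libraries higher (15.4%) and 5 all lower (12.8%), beside 10.4% and 12% of all genes. The class medians were 0.58 over the 4 DNAJA, 0.20 over the 10 DNAJB and 0.01 over the 25 DNAJC genes, or 0.57, -0.04 and 0.11 without WT replicate 3. By compartment, 4 of the 13 ER members had all CKO libraries higher and 2 all lower, and 1 of the 8 mitochondrial members was higher and 3 lower.

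**Figure D4:**
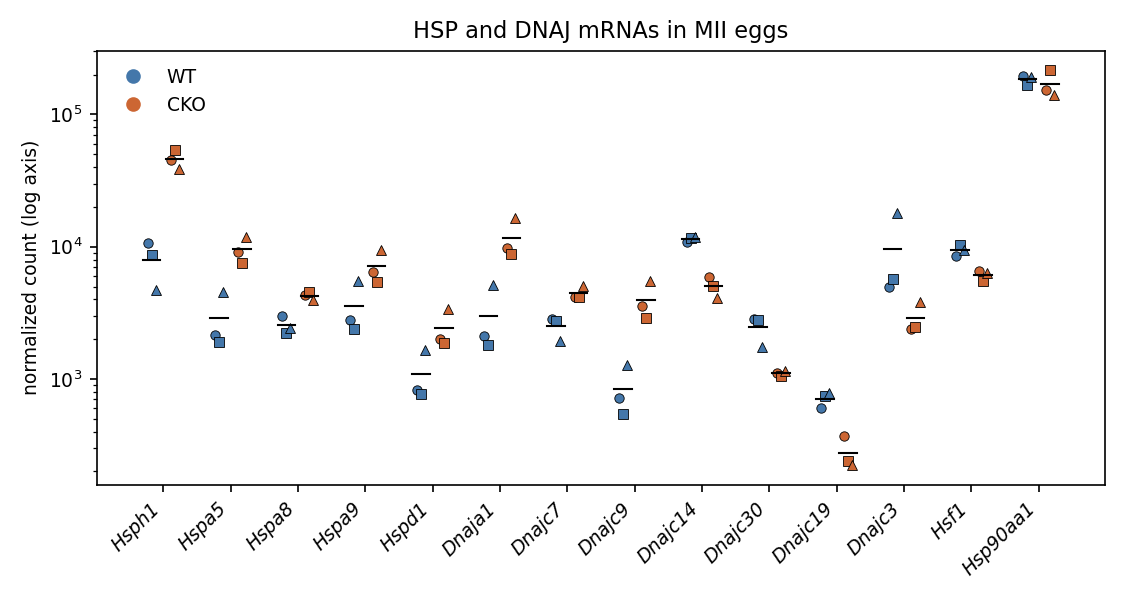
Normalized count at MII (log axis) of 14 HSP and DNAJ genes in each library, with circles, squares and triangles as libraries in order of replicate number and bars as group means. Hsph1, Hspa5, Hspa8, Hspd1, Dnaja1, Dnajc7 and Dnajc9 have all CKO libraries above WT, Dnajc14, Dnajc30, Dnajc19, Dnajc3 and Hsf1 have all below, and Hspa9 and Hsp90aa1 overlap.

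The promoters were searched for the heat shock element, the sequence that HSF1 binds, since the members include its best known targets. The search used RefSeq windows of GRCm38.p6 that run from 250 bases before to 50 bases after each gene's start, and the letters GAANNTTCNNGAA or TTCNNGAANNTTC, which is 3 alternating units read on both strands. A window was lacking for 15 members, and only 1 HSP90 gene and 9 HSP70 and HSP110 genes had one. Of the 62 members with a window, 4 held the element (6.45%), against 179 of 27025 genes (0.662%): Hsph1, Dnajb6, Hspd1 and Hspe1. Hspd1 and Hspe1 were counted through 1 shared stretch of bases. The Hsph1 match lies after the start, 15 to 27 or 36 to 48 bases from it, depending on the window. Shown here are 30 bases around each element on the gene's strand, with the element in capitals, because they set the 1 member of the 4 that rose beside those that did not. The Hsph1 site lies at chr5:149636279-149636308 (minus strand), the Dnajb6 site at chr5:29735844-29735873 (plus strand) and the site at chr1:55088053-55088082 (plus strand) in the window shared by the divergent genes Hspe1 and Hspd1.
Hsph1: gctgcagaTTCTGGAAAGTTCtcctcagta
Dnajb6: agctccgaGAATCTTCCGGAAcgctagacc
Hspe1: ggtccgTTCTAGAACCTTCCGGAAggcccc
In the Hspe1 site 2 overlapping matches make 1 longer run.

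Beside these sites stand different values at MII. Hsph1 had the log2 difference of 2.59 given above. Dnajb6, a J-domain protein that holds back aggregation, was at 1974, 2306 and 6944 in WT and 5331, 5307 and 8912 in CKO, which overlapped (log2 difference 0.998, adjusted p = 0.338), and its log2 difference was 1.57 without WT replicate 3 (adjusted p = 0.0673). The element was in 0 of the 7 CCT genes and 0 of the 4 prefoldin genes with a window, and Cct4 had no window. Since only 0.662% of all genes held it, 0 in groups this small says nothing of these classes. The shorter form of 2 units, GAANNTTC or TTCNNGAA, was in 18 of the 62 members (29%) and in 4587 of all 27025 genes (17%). It was in 3 of the 7 CCT genes and 0 of the 4 prefoldin genes. A match is a description of letters in these windows and does not show a site in use. The lack of an exact match does not show that a site is absent.

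At GV the 12 deposited members comprised 7 higher and 5 lower in CKO, all without overlap between genotypes. Each was there because of this difference, so the values are a description. Set against the 21462 genes implied as tested, the genes in the table came to 6.42% higher and 9.77% lower. Some of those in the table, such as Hspb3, had no adjusted p and lie outside the 21462, so the shares are approximate. Nothing is read from the members' count against these shares. Hsph1 was at 28171, 25255 and 28303 in WT replicates 1, 2 and 4 and at 96059, 99594 and 108772 in the CKO replicates of the same numbers. Cct4 was at 4117, 3248 and 3840 in WT and 16158, 15912 and 16595 in CKO. Hspa5 was at 11765, 14781 and 13668 in WT and 39366, 41876 and 43063 in CKO. The libraries within each group lay close together in these 3 genes, and in the authors' deposited table their log2 fold changes were 1.90, 2.12 and 1.63.

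The other CCT subunits in the GV table were Cct3, Cct7 and Cct6a. Cct3 was at 22888, 33129 and 24371 in WT and 71167, 68937 and 64430 in CKO. Cct7 was at 3907, 5063 and 4644 in WT and 9743, 10337 and 9712 in CKO. Cct6a was at 522, 214 and 366 in WT and 1620, 974 and 1958 in CKO. All 4 CCT subunits selected at GV were on the higher side, with log2 fold changes from 1.13 (Cct7) to 2.12 (Cct4) in the authors' deposited table. Dnaja4, a J-domain partner of HSP70, was at 4729, 5005 and 4045 in WT and 8204, 8214 and 11387 in CKO, and lay nearest to the 2-fold limit, at 1.01 in the authors' deposited table.

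Pfdn4 was the most reduced of the well-covered members at GV, with 9459, 12188 and 7164 in WT and 1394, 1790 and 1329 in CKO. Dnajc30 was at 1661, 1452 and 1708 in WT and 730, 669 and 513 in CKO. Hspbap1, which encodes a protein that binds the small HSP Hspb1, was at 6298, 5867 and 4846 in WT and 1920, 2789 and 2429 in CKO. Their log2 fold changes in the authors' deposited table were -2.67, -1.33 and -1.25. Hspb11 was at 254, 266 and 196 in WT and 81.9, 89.8 and 77.3 in CKO. Hspb3 was at 1.74, 25.9 and 6.21 in WT and listed at 0 in all 3 CKO libraries, and in the authors' deposited table it had an unadjusted p of 0.0492, the nearest to the limit, and no adjusted p.

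**Figure D5:**
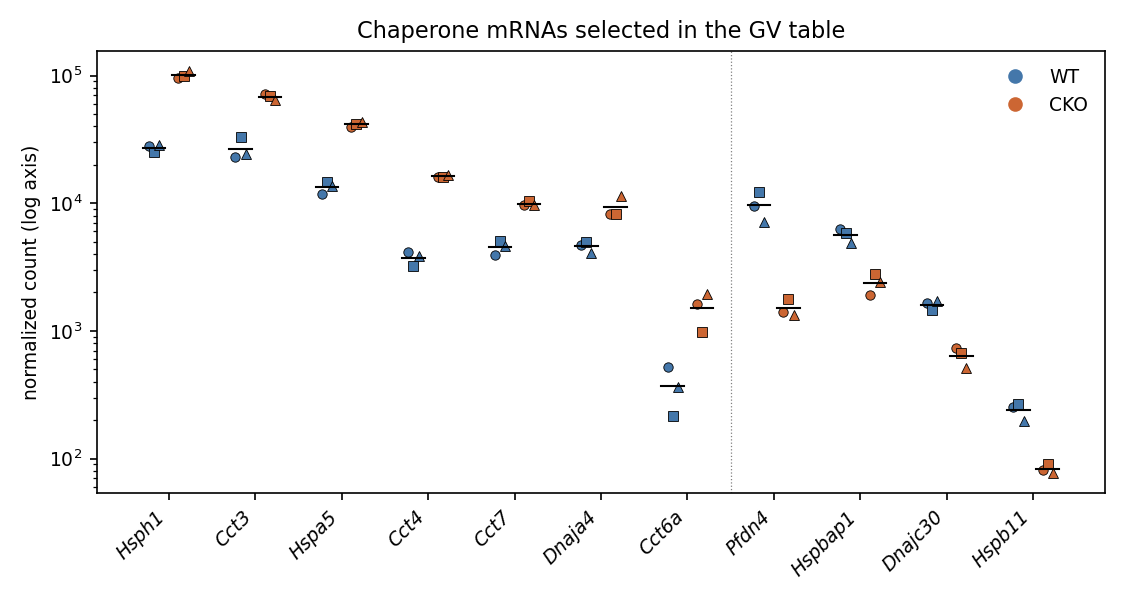
Normalized count at GV (log axis) of 11 chaperone genes in the deposited GV table, without Hspb3; circles, squares and triangles are the libraries in order of replicate number and bars are group means. Every gene shown was selected for its difference; 7 have all CKO libraries above WT and Pfdn4, Dnajc30, Hspbap1 and Hspb11 have all below.

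The 2 stages were normalized separately, and genes outside the GV table were not selected there, which says nothing of their level. Of the 7 members higher at GV, 6 also had all CKO libraries higher at MII, as did 40.6% of all 1157 genes higher in the GV table and tested at MII: Cct3, Cct4, Cct6a, Cct7, Hspa5 and Hsph1. For Cct4 the GV value was 2.12 in the authors' deposited table and the MII value 2.76 in the same source, and for Hsph1 they were 1.90 and 2.52. Dnaja4 overlapped at MII, with 1762, 2163 and 6681 in WT and 1983, 2167 and 3930 in CKO. Of the 5 lower at GV, Pfdn4, Dnajc30 and Hspb11 had all CKO libraries lower at MII, as did 41.3% of the 1828 such genes. Hspb11 had a mean of 98.1 ± 109 in WT MII libraries, and 0, 10.1 and 12.4 in those of CKO. Hspbap1 overlapped at MII, at 1036, 1201 and 1681 against 1180, 901 and 1220, and Hspb3 had reads in 1 CKO library there. Whether the difference between genotypes differed between the stages was not tested.

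Genes that work with these chaperones were taken from lists. The list of HSP90 and HSP70 co-chaperones also held Hsf2, Hsf5, Hsbp1 and Trap1, which are not co-chaperones. Of its 31 measured genes 0 rose and 1 fell at MII, beside 0.52% and 0.991% of all genes. In 7 of them, Hsf2 included, all CKO libraries were higher and in 4 all lower, where 10.4% and 12% of all genes were so. The median log2 difference was -0.04. Without WT replicate 3, 3 were called higher (Fkbp4, Nudcd2 and Stub1) and 1 lower, against 1.3% and 3.06% of all genes, and the median was 0.12. By the call of the authors' deposited table, 5 were higher, Hsf2 included, and 1 lower, against 4.1% and 6.45% of its genes. The gene that fell was Unc45a, a co-chaperone that hands myosin to HSP90, at 2972, 2448 and 3621 in WT and 610, 582 and 573 in CKO (log2 difference -2.34, SE 0.32, adjusted p = 0.0129), or -2.20 without WT replicate 3 (adjusted p = 0.0346). At GV Unc45a was at 40342, 61862 and 57774 in WT and 15351, 11538 and 11316 in CKO.

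The immunophilin gene Fkbp4, which links HSP90 to steroid receptors, was at 122, 127 and 27.7 in WT and 918, 544 and 778 in CKO at MII, without overlap and with an adjusted p of 0.0524 (log2 difference 3.25). It was called without WT replicate 3 (log2 difference 2.54, adjusted p = 0.0346). St13, the HSP70-interacting protein Hip, was at 2307, 2245 and 3534 in WT and 5453, 5259 and 8146 in CKO, also without overlap (log2 difference 1.22, adjusted p = 0.0932), or 1.44 without WT replicate 3 (adjusted p = 0.0540). At GV both were in the table with CKO higher, with log2 fold changes of 1.88 and 1.16 in the authors' deposited table, and so was Ahsa2, with 1.14. The second heat shock factor gene, Hsf2, was at 103, 135 and 41.0 in WT and 497, 471 and 302 in CKO at MII, on the other side from Hsf1 (log2 difference 2.30, adjusted p = 0.114), or 1.80 without WT replicate 3 (adjusted p = 0.0731).

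Of the 11 measured partners of CCT and prefoldin 0 rose and 0 fell. All CKO libraries were higher in 0 and lower in 2, where 10.4% and 12% of all genes were so. Pdcl3, a phosducin-like partner of CCT, was at 1087, 1328 and 3066 in WT and 454, 284 and 599 in CKO (log2 difference -1.94, adjusted p = 0.0849), or -1.49 without WT replicate 3 (adjusted p = 0.118), and at GV its log2 fold change was -2.10 in the authors' deposited table. Pdrg1, a prefoldin-like gene, was at -1.30 there. Of the 6 tubulin folding cofactors, which act after CCT, 0 passed the test at MII. In 2 all CKO libraries were higher and in 2 all lower, beside the same 10.4% and 12% of all genes. The list of folding genes of mitochondria and the ER also held proteases and the transcription factor genes Atf4 and Atf6. Of its 17 measured genes 1 rose and 0 fell, beside 0.52% and 0.991% of all genes. Clpx, the unfoldase of the mitochondrial protease ClpXP, was at 256, 163 and 264 in WT and 1280, 1752 and 2657 in CKO (log2 difference 3.02, SE 0.43, adjusted p = 0.0155), or 3.14 without WT replicate 3 (adjusted p = 0.0379).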

How the data were processed

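RNA was sequenced from oocytes in 12 libraries, 3 for each genotype at each stage. The authors deposited log10(normalized count + 1) for each gene and library. Per the file headers the tables also gave a mean signal per gene, a log2 fold change and its error, a score, and p-values before and after adjustment. The GV table the authors deposited held selected genes only. None of the aligner, counter, strand setting and genome build is given in the sources used here, so overlapping genes and near copies are uncertain. All 100% of the values were whole reads after division by 1 unit per library (tolerance 0.05), which gave the depths. Of the value columns, 0 were unmatched to a sample.

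The 6 MII libraries were compared as log2(normalized count + 1) with limma-trend (limma 3.58.1, R 4.3.3), for genes with a mean of at least 1, with Benjamini-Hochberg adjustment over 20388 genes. At GV no test was fitted. In simulated data (20388 genes, 200 changed, common dispersion 0.15, 3 runs) the procedure recovered 68.3% of 4-fold and 100% of 8-fold changes, with 4.35% false calls. The changes were placed only in genes with a mean of at least 100 reads, so the recovery does not cover lower genes. The simulation held no library that stood apart. Alternatives were a pseudocount of 0.1, no filter, library size alone, a replicate block, array weights, limma-voom on the recovered reads scaled by trimmed mean of M values, a 2-fold minimum, and leaving out each library. Members and lists were chosen with earlier results of these data known. The genes named were Lsm14b, every member in the GV table or called at MII, every CCT and prefoldin gene, Hsf1, the 2 members of each other class with the highest WT mean at MII and the called partner genes; the rest were chosen after their values were seen. Symbols ending in -ps (4) were left out, and Bag3 was not analysed here.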

Additional observations from a re-analysis of the deposited data

How the results depend on the processing

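The 4 calls at MII changed with the library weights, and the cause was not tested. With array weights, in which WT replicate 3 had the lowest weight (0.198, against 0.902 to 4.37), 23 members were called, 16 higher and 7 lower. Calls over all 20388 genes also went up, from 106 higher and 202 lower in the main fit to 1297 and 1893. Limma-voom on the recovered reads called 2 members while 14 were called in the authors' deposited table (9 higher, 5 lower). Leaving out 1 library gave 0 to 9 calls, with 9 only without WT replicate 3. The other settings gave 3 (a pseudocount of 0.1, no filter), 4 (a 2-fold minimum) and 5 (library size alone). Over all genes the pseudocount of 0.1 gave 72 higher and 150 lower, no filter 84 and 163, and library size alone 89 and 165. Limma with a replicate block called 0 members and 0 genes over the whole set, with 5 members at an unadjusted p under 0.05. The genotypes share only the numbers 2 and 3 at MII, and the deviations of same-numbered libraries correlated at 0.0485 and -0.239 across genes. These pairs are few and include WT replicate 3, which stood apart, so they cannot show whether the numbers pair the libraries. The deviations of CKO replicate 4 correlated at 0.318 with those of WT replicate 3, and at -0.325 and -0.229 with WT replicates 1 and 2. The values without WT replicate 3 keep CKO replicate 4. The CCT median of 1.31 ranged from 1.12 without WT replicate 2 to 1.62 with array weights and was 1.15 with the replicate block. The median over all genes went from -0.11 to 0.01 with limma-voom, while the CCT median was 1.30. Of the genes followed, only uncalled ones changed sign. With the replicate block Cct8 was -0.013 and Pfdn6 -1.31, and with array weights Dnaja4 was 0.19 and Pfdn2 0.057. Leaving out each library gave Cct8 -0.030 to 0.19, Dnaja4 -0.57 to 0.39, Pfdn2 -0.83 to 0.14, Pfdn6 -0.39 to 2.49 and Vbp1 -0.37 to 0.29. The GV count of 12 was 11 or 12 under its alternatives. Depth limits genes such as Cct6a, Pfdn6 and Hspb3, with at most 10 reads in their lowest MII library.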
